A study of Homo sapiens with 12 samples.

Results

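The autophagy machinery was examined as 37 genes, chosen by name for their roles in building the autophagosome, out of the 62069 genes of the count table. All 37 passed the filter on low counts, so all 37 were among the 15284 genes tested. They were grouped by role into the initiation complex (6 genes), the PI3-kinase complex (6), membrane supply and effectors of the lipid PI3P (5), conjugation enzymes (7), ATG4 proteases (4), the ATG8 family (5) and cargo receptors (4). Positions of genes given below are those of GENCODE release 29 on GRCh38.

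Autophagy delivers cytoplasm and damaged organelles to the lysosome inside a double-membraned vesicle, the autophagosome. The ULK kinase complex starts the process, a class III PI3-kinase marks the growing membrane with PI3P, and a ubiquitin-like conjugation system attaches ATG8 proteins to the membrane, where they hold cargo receptors. Autophagy is known to accompany senescence of fibroblasts after activation of RAS, and much of its control acts on proteins rather than on mRNA.

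RNA was sequenced from the line IMR90 ER:RAS, lung fibroblasts of human origin whose RAS is joined to a hormone-binding domain of the estrogen receptor. Adding 4-hydroxytamoxifen (4OHT) switches this RAS on, and the cells enter oncogene-induced senescence (OIS). There were 4 groups of 3 libraries, all from cells of this line at passage 13, with 7 days in culture and new medium on day 4. Non-induced cells had no 4OHT, and 4OHT-induced cells had 100 nM 4OHT and are labelled day 5 after induction, as are the non-induced cells. The other two groups, shXPO7_3/4OHT and shXPO7_5/4OHT, had the same induction and each expressed 1 short hairpin RNA against XPO7, a nuclear transport receptor. The study's text describes the cells without these hairpins as carrying a control vector. Replicates are lettered T, A and C in the non-induced group and T, A and B in the others, and no source used here says whether they were separate cultures. All p-values therefore rest on the spread among these libraries alone, which may be technical. As the cells are 1 fibroblast line with a regulated RAS fusion, the values describe that model alone.

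Libraries held 28534141 to 60397769 counted reads, so that even GABARAP, with 126 to 324 reads a library, and ATG16L2, with 63 to 124, were sampled. XPO7 ran from 127 to 144 CPM (counts scaled to library size with TMM factors) in the 6 libraries without a hairpin, from 26.4 to 28.7 CPM with shXPO7_3 and from 50.8 to 54 CPM with shXPO7_5, in the direction the labels give. The 8 fibroblast markers summed to 24016 to 27880 CPM in non-induced libraries and 16696 to 18154 CPM in 4OHT-induced libraries. With shXPO7_3 they summed to 17395 to 21343 CPM and with shXPO7_5 to 18984 to 21791 CPM. The 5 epithelial markers summed to at most 1.24 CPM and the 5 leukocyte markers to at most 0.34 CPM, with SFTPC, SCGB1A1, KRT5, CD3E and MS4A1 at 0 in every library. The 4 endothelial markers summed to 1.9 to 3.15 CPM in non-induced, 3.35 to 3.72 CPM in 4OHT-induced and at most 5.27 CPM in knockdown libraries, with PECAM1 and CDH5 at 0. The fall of the summed fibroblast markers moved with induction, and its part in the results was not tested. It was uneven, with mean DCN going from 986.8 to 95.63 CPM and mean VIM from 5804 to 5235 CPM. In 3 libraries the log2 ratio to the 4OHT-induced mean rose with the GC content of the genes' transcripts, with a Spearman rho over genes of 0.575 in shXPO7_3/4OHT T, 0.611 in shXPO7_5/4OHT T and 0.787 in shXPO7_5/4OHT B, against -0.344 to 0.317 in the other 9.

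The first comparison asked which autophagy genes differed between 4OHT-induced and non-induced cells. No group had 4OHT without the RAS fusion, so effects of 4OHT itself and of active RAS or OIS cannot be told apart. On 4OHT, 11 of the 37 genes rose and 6 fell, and 20 did not pass the test (edgeR's quasi-likelihood test, adjusted p under 0.05). Over all genes tested, 24.8% rose and 26.1% fell, so the share of risers, 11 of 37, was near the background and that of fallers was below it. The genes that rose were ATG4A, ATG101, WIPI1, ULK3, GABARAPL2, MAP1LC3B, ATG4D, ATG2B, ATG13, UVRAG and NBR1. Those that fell were MAP1LC3A, ATG10, ULK2, GABARAP, OPTN and GABARAPL1. The log2 fold changes had a median of 0.17 over the 37 genes and of -0.01 over all genes tested, with 28 of 37 above 0. They ran from -0.87 to 0.89, so none reached a size of 1. The 3 CPM of the 4OHT-induced group lay wholly above the 3 non-induced CPM for 21 genes and wholly below for 7, where 31.8% and 31.4% of all genes did. In bulk RNA, fewer cells with a transcript and less of it per cell cannot be told apart.

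**Figure D1:**
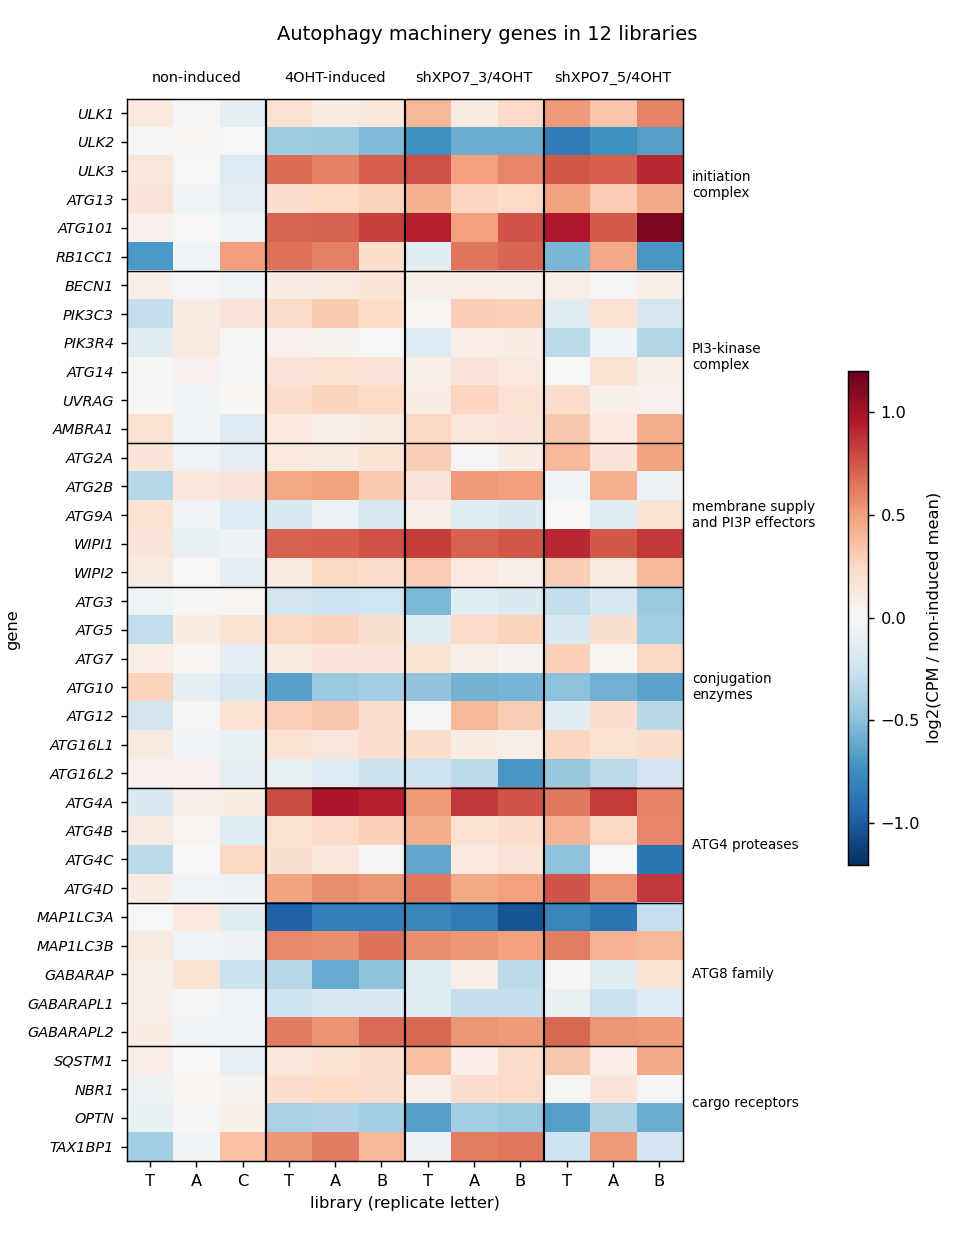
Heat map of log2(CPM divided by the mean CPM of the non-induced libraries) for the 37 genes, in rows by role, in the 12 libraries, in columns by group with their replicate letters. Red is above and blue below the non-induced mean; ATG4A, ATG101, WIPI1 and ULK3 are red and ULK2, MAP1LC3A and OPTN blue in all 9 libraries from 4OHT-treated cells, while RB1CC1 and TAX1BP1 vary within groups.

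Within the initiation complex, the 3 ULK kinase genes took different courses on 4OHT. ULK3, a kinase related to ULK1 that also acts in Hedgehog signalling, had 17.2, 15.7 and 13.9 CPM in the non-induced and 24.8, 23.8 and 25.7 CPM in the 4OHT-induced libraries. Every induced library lay above every non-induced one, and ULK3 rose by 0.67 ± 0.10 (log2 fold change ± SE, n = 3 a group, edgeR adjusted p = 0.000123). ULK2, a kinase that starts autophagy alongside ULK1, had 16.5, 17.1 and 16.8 CPM before and 12.5, 12.3 and 11.6 CPM after induction. Again the groups did not overlap, and ULK2 fell by 0.47 ± 0.08 on the log2 scale (edgeR adjusted p = 0.000279). ULK1, the best-known of these kinases, had 39, 35.7 and 33.2 CPM before and 40.7, 38.2 and 39.3 CPM after induction. These ranges overlapped, and the difference of 0.13 ± 0.10 did not pass the same test (edgeR adjusted p = 0.268). As a ratio within each library, log2(ULK1/ULK2) was 1.10 ± 0.13 (SD, n = 3) in non-induced and 1.70 ± 0.06 in 4OHT-induced cells, without overlap. The exact two-sided permutation test gave p = 0.1, the smallest that 3 against 3 libraries allow, and 0.157 after Benjamini-Hochberg adjustment over 11 pairs of related genes.

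ATG101, which steadies ATG13 in the complex, had 47.3, 45.5 and 43.8 CPM in non-induced and 73.8, 74.3 and 80.6 CPM in 4OHT-induced libraries. It rose by 0.74 ± 0.12 on the log2 scale (edgeR adjusted p = 0.000195), with no overlap of the groups. ATG13, the adaptor that joins the kinases to the complex, rose by 0.24 ± 0.08, from 99 ± 9.56 to 117.1 ± 3.02 CPM (SD, edgeR adjusted p = 0.0304). RB1CC1, the scaffold also called FIP200, had 37, 57.5 and 84.2 CPM in the non-induced and 93.3, 90.5 and 68.8 CPM in the 4OHT-induced libraries. The groups overlapped and the difference of 0.50 ± 0.34 did not pass the test (edgeR adjusted p = 0.244). Of the exonic bases of ATG101, 19.2% lie opposite exons of an antisense gene. This share was 22% for SQSTM1, 18.1% for ATG7, 17.1% for BECN1 and 15% for ATG4D. No source used here states whether the authors' counting used strand, so reads of such a pair may not have been told apart.

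The start regions of ULK3 and ULK2 are shown because these related genes moved in opposite directions. Each is the 200 bases before the RefSeq transcription start (GRCh38.p14), written 5′ to 3′ on the gene's strand, with matches to CACGTG (the E-box form bound by TFEB and its relatives), TGANTCA (AP-1) or CCGGAAG (ETS) on either strand in capitals. ULK3 is read from chr15:74843157-74843356 on the minus strand and ULK2 from chr17:19867937-19868136 on the minus strand.
ULK3: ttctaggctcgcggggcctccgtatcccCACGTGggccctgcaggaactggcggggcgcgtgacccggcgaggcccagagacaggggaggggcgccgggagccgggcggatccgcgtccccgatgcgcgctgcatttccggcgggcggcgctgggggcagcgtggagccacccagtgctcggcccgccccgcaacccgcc
ULK2: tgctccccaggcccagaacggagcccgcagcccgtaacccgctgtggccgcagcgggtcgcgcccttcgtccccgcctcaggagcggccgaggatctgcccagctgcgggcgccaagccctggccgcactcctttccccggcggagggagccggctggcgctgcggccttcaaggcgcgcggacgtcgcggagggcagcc
The stretch of ULK3 held 1 CACGTG, which began 172 bases before the start, and that of ULK2 held none of the 3 motifs. In windows from 250 bases before to 50 after the start, found for 33 of the 37 genes (41 windows), CACGTG occurred in ULK3, ATG14 and ATG3. That was 7.32% of their windows, against 7.26% of all 35116 windows and 9.06% of those of genes tested. TGANTCA occurred in none of the 41, against 7.71% of all and 5.46% of those of genes tested. CCGGAAG occurred in 10 of the 33 genes and 24.4% of their windows, against 10.3% of all windows and 16.2% of those of genes tested. The 10 were ATG101, BECN1, PIK3C3, ATG3, ATG5, ATG7, ATG16L1, ATG4C, GABARAPL2 and SQSTM1. Of these, ATG101 and GABARAPL2 rose on 4OHT and none fell, where 11 and 6 of the 37 did. Among all genes tested, 24.8% rose and 26.1% fell. Windows were missing for ATG4D, RB1CC1, UVRAG and MAP1LC3A. A match says only that these letters stand in the window.

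Of the 6 genes of the PI3-kinase complex, UVRAG alone passed the test, and all 6 log2 fold changes were above 0, between 0.03 and 0.26. UVRAG, which directs the kinase to later steps of vesicle traffic, had 21.2, 20.6 and 21.4 CPM before and 24.5, 25.3 and 24.8 CPM after induction. It rose by 0.24 ± 0.07 (edgeR adjusted p = 0.0153), with no overlap of the groups. ATG14, the subunit that brings the kinase to forming autophagosomes, went from 35.3 ± 1.02 to 39.5 ± 0.26 CPM (SD, n = 3), a difference of 0.16 ± 0.07 that did not pass (edgeR adjusted p = 0.0633). BECN1, the scaffold subunit, had 83.2, 78.8 and 77 CPM against 84.7, 85.6 and 89.1 CPM. Its log2 fold change had a 95% interval of -0.01 to 0.25 (edgeR adjusted p = 0.11). PIK3C3, the catalytic subunit, PIK3R4, its regulatory subunit, and AMBRA1, a regulator of the complex, also did not pass.

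Among genes of membrane supply, WIPI1 rose the most. WIPI1 (ENSG00000070540, chr17:68420948-68457513), a PI3P-binding protein of the forming autophagosome, had 116, 99.1 and 101 CPM in non-induced and 172, 173 and 179 CPM in 4OHT-induced libraries. That was a rise of 0.73 ± 0.07 on the log2 scale (edgeR adjusted p = 4.75e-06). Its relative WIPI2, which recruits the conjugation machinery, had 99.4, 92.6 and 85.1 CPM before and 98.4, 110 and 107 CPM after. The WIPI2 ranges overlapped, and 0.18 ± 0.09 did not pass the test (edgeR adjusted p = 0.12). Hence log2(WIPI1/WIPI2) within a library went from 0.19 ± 0.08 to 0.74 ± 0.07 (SD), without overlap (exact permutation p = 0.1, adjusted 0.157). ATG2B, a lipid transfer protein that feeds the growing membrane, had 41, 56.9 and 58 CPM against 71.7, 72.5 and 64.8 CPM and rose by 0.42 ± 0.16 (edgeR adjusted p = 0.0469). ATG2A, its partner with the same task, and ATG9A, a lipid scramblase of the seed vesicles, did not pass, at 0.13 ± 0.11 and -0.15 ± 0.11. Antisense exons face 28.1% of the exonic bases of WIPI1, and 38.8% of those of ATG9A are shared with another gene on the same strand, so the counts of ATG9A are uncertain.

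The conjugation enzymes held 1 called gene in 7. ATG10 (ENSG00000152348, chr5:81972025-82276857), the E2-like enzyme that joins ATG12 to ATG5, had 9.33, 7.19 and 6.74 CPM in the non-induced and 4.95, 5.71 and 5.85 CPM in the 4OHT-induced libraries. The groups did not overlap, and ATG10 fell by 0.49 ± 0.12 on the log2 scale (edgeR adjusted p = 0.0053). ATG3, the E2-like enzyme that attaches ATG8 proteins to lipid, had 55.7, 58.4 and 59.3 CPM against 49.6, 48.6 and 48.9 CPM, a difference of -0.24 ± 0.10 that did not pass (edgeR adjusted p = 0.0742). ATG5, ATG7, ATG12 and ATG16L1 lay above their non-induced libraries in all 3 induced libraries, by 0.13 to 0.27 on the log2 scale, without passing. ATG16L2, a relative of ATG16L1, was the gene with the lowest level per kb of exon, 0.34 CPM per kb in non-induced cells, and did not pass.

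The ATG4 proteases trim new ATG8 proteins and free them from lipid. ATG4A (ENSG00000101844, chrX:108091668-108154671) had 14.6, 17.3 and 17.5 CPM in non-induced and 28.3, 32.4 and 31.2 CPM in 4OHT-induced libraries, and its rise of 0.89 ± 0.11, or 1.86-fold, was the largest of the 37 (edgeR adjusted p = 2.7e-05). ATG4D had 12.6, 11.5 and 11.3 CPM before and 16.4, 17.4 and 17.1 CPM after, and rose by 0.52 ± 0.09 (edgeR adjusted p = 0.000479). Both genes had induced libraries wholly above the non-induced ones. ATG4B, the protease with the broadest activity, went from 39.3 ± 3.3 to 46.2 ± 1.54 CPM (SD), which did not pass (edgeR adjusted p = 0.0776). ATG4C did not pass either, at 0.10 ± 0.23. Per library, log2(ATG4A/ATG4B) moved from -1.26 ± 0.26 to -0.60 ± 0.07 (SD), without overlap (exact permutation p = 0.1, adjusted 0.157).

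The ATG8 family split. All 5 genes passed the test, 2 upward and 3 downward. MAP1LC3B (ENSG00000140941, chr16:87383995-87404779), which encodes the LC3 protein used to track autophagosomes, had 179, 160 and 159 CPM in non-induced and 248, 245 and 260 CPM in 4OHT-induced libraries. GABARAPL2, also called GATE-16, had 61.6, 55.9 and 55.8 CPM against 88.8, 83.8 and 92.3 CPM. Both rose with no overlap of groups, by 0.60 ± 0.07 (edgeR adjusted p = 2.45e-05) and 0.61 ± 0.08 (edgeR adjusted p = 3.95e-05). MAP1LC3A (ENSG00000101460, chr20:34546854-34560345), the other LC3 form, moved the opposite way, from 11.4, 12.3 and 10.3 CPM to 5.77, 6.42 and 6.42 CPM, and fell by 0.87 ± 0.15 on the log2 scale, the largest fall of the 37 (edgeR adjusted p = 0.000321). GABARAPL1, a GABARAP relative, had 124, 118 and 115 CPM before and 100, 104 and 105 CPM after induction and fell by 0.20 ± 0.07 (edgeR adjusted p = 0.026). GABARAP had 7.11, 7.63 and 5.7 CPM against 5.36, 4.47 and 4.88 CPM and fell by 0.47 ± 0.14 (edgeR adjusted p = 0.0135). The level of GABARAP is uncertain, since 30.5% of its exonic bases are shared with another gene on the same strand and 25.2% face an antisense gene. The processed pseudogene GABARAPL3 and the gene MAP1LC3B2 are close copies of GABARAPL1 and MAP1LC3B, and no source used here states how reads with several matches were counted. MAP1LC3B2 had a count of 0 in every library.

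The opposite moves shifted the make-up of the family. Summed per kb of exon, the 5 genes came to 88.8 ± 4.68 CPM per kb (SD, n = 3) in non-induced and 107.3 ± 3.32 CPM per kb in 4OHT-induced cells. Of that sum, MAP1LC3B made up 35.2% ± 0.817 before and 44% ± 0.108 after induction, and GABARAPL2 21.4% ± 0.377 and 27.1% ± 0.656. The share of GABARAPL1 went from 32.8% ± 0.395 to 23.6% ± 0.616, that of MAP1LC3A from 7.25% ± 0.611 to 3.28% ± 0.196, and that of GABARAP from 3.38% ± 0.438 to 2.02% ± 0.185. In non-induced cells GABARAPL1 and MAP1LC3B were thus close in level per kb. In 4OHT-induced cells GABARAPL2 had passed GABARAPL1 per kb, at a mean of 29.1 against 25.3 CPM per kb. In CPM GABARAPL2 stayed below GABARAPL1, at 88.3 against 103.2. The lengths are of all annotated exons, 3034 bases for GABARAPL2 and 4086 for GABARAPL1. The transcripts expressed may have other lengths. Within a library, log2(MAP1LC3A/MAP1LC3B) changed by -1.47 and log2(GABARAPL1/GABARAPL2) by -0.82, the former the widest shift of the 11 pairs, and neither ratio overlapped between groups (exact permutation p = 0.1 each, adjusted 0.157).

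The start regions of GABARAPL2 and GABARAPL1 are shown as a second pair of relatives that moved apart, with the same capitals. GABARAPL2 is read from chr16:75566179-75566378 and GABARAPL1 from chr12:10212677-10212876, both on the plus strand of GRCh38.p14.
GABARAPL2: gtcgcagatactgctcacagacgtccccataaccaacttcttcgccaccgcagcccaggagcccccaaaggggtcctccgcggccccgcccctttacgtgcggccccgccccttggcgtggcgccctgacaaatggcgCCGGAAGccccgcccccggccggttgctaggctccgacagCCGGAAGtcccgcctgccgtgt
GABARAPL1: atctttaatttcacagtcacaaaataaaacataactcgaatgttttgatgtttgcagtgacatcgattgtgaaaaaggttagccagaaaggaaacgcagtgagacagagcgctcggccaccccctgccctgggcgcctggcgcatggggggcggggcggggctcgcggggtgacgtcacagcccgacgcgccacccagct
GABARAPL2 held CCGGAAG at 62 and 22 bases before the start, and GABARAPL1 held none of the 3 motifs in these 200 bases.

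**Figure D2:**
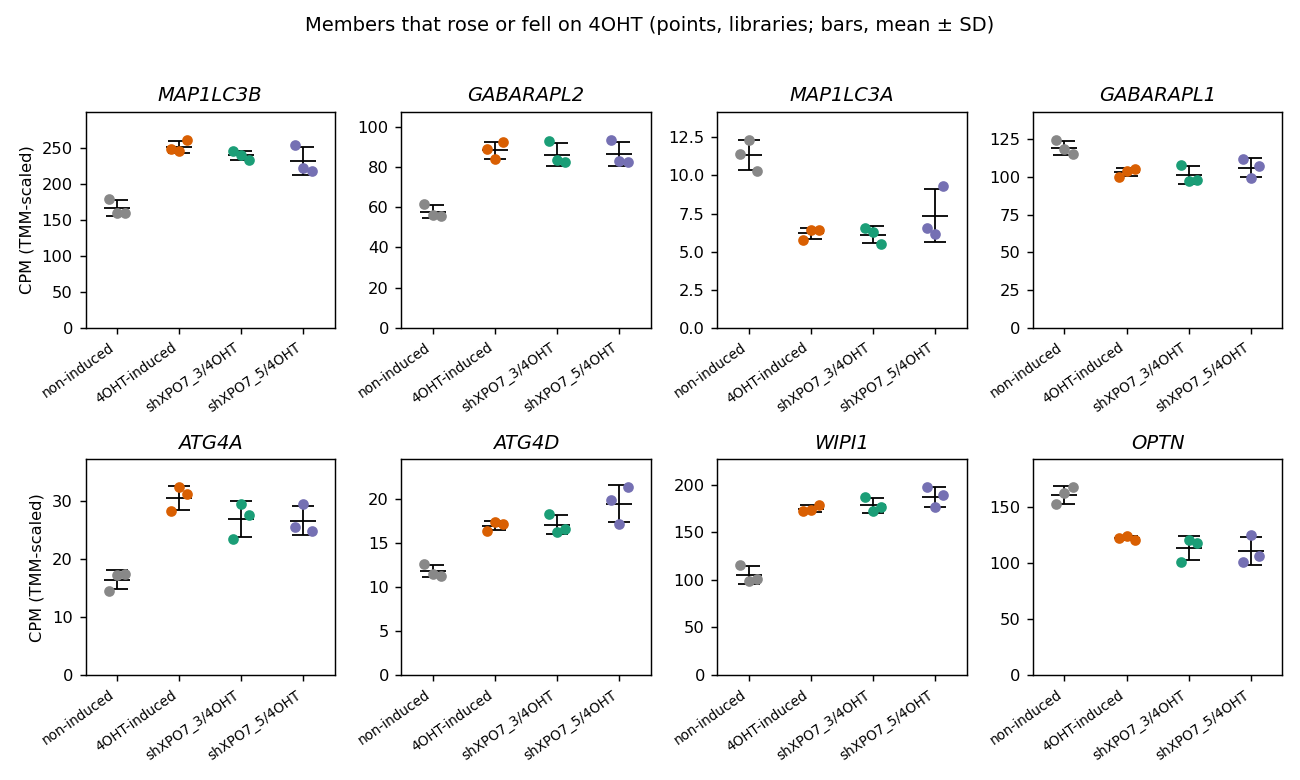
CPM (TMM-scaled, linear axes from 0) of 8 genes that passed the test on 4OHT, in the 4 groups; points are libraries and bars the mean ± SD of 3. MAP1LC3B, GABARAPL2, ATG4A, ATG4D and WIPI1 are higher and MAP1LC3A, GABARAPL1 and OPTN lower in each 4OHT-treated group than in non-induced libraries, and the knockdown groups sit near the 4OHT-induced ones.

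Cargo receptors bind ubiquitinated cargo and ATG8 proteins. SQSTM1, or p62, had by far the highest level per kb of the 37 genes in both groups, with 1023, 972 and 904 CPM in non-induced and 1053, 1090 and 1115 CPM in 4OHT-induced libraries. Although the groups did not overlap, the difference of 0.17 ± 0.10 did not pass the test (edgeR adjusted p = 0.165). NBR1, a receptor of like design, went from 180, 190 and 193 CPM to 216, 221 and 215 CPM and rose by 0.21 ± 0.07 (edgeR adjusted p = 0.0184). OPTN (ENSG00000123240, chr10:13099449-13138308), a receptor for damaged mitochondria and bacteria, had 152, 162 and 167 CPM before and 122, 124 and 120 CPM after induction and fell by 0.39 ± 0.09 (edgeR adjusted p = 0.00268). TAX1BP1, a receptor that also curbs inflammatory signalling, had 91.3, 118 and 154 CPM against 173, 186 and 159 CPM, and its difference of 0.51 ± 0.24 did not pass (edgeR adjusted p = 0.0975).

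Of the 17 calls, 11 held in all 20 alternative analyses: ULK2, ULK3, ATG101, WIPI1, ATG10, ATG4A, ATG4D, MAP1LC3A, MAP1LC3B, GABARAPL2 and OPTN. The other 6 ended when single libraries were left out. Without non-induced A, the calls of ATG13, UVRAG, ATG2B, GABARAP and NBR1 were lost, and without induced A those 5 and GABARAPL1. ATG13 was also lost without non-induced C, induced T or induced B, GABARAPL1 without non-induced T or induced T, and NBR1 without non-induced T or induced B. ATG2B was lost without 9 of the 12 libraries, all but non-induced C, shXPO7_3/4OHT T and shXPO7_5/4OHT A. Over all these losses edgeR's adjusted p ran from 0.0501 to 0.165, with log2 fold changes of the same sign. With the trend on GC content and length removed from each library, 24 genes rose and 7 fell, where 5430 of all 15284 genes rose and 4474 fell. With upper-quartile scaling, which moved the median of all genes from -0.007 to -0.105 and the share of risers among called genes from 48.8% to 38.3%, 7 rose and 7 fell: ATG13, UVRAG, ATG2B and NBR1 lost their calls and ATG3 gained one.

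The second question was whether knockdown of XPO7 altered these genes in cells given 4OHT. With edgeR's test, 0 of 37 genes passed for shXPO7_3 and 0 for shXPO7_5 against 4OHT-induced cells, where 0.124% and 0.589% of all genes passed. At an unadjusted edgeR p under 0.05 there were 1 gene for shXPO7_3 and 8 for shXPO7_5, where 979 and 3302 of all 15284 genes were. DESeq2 called 0 and 1 of the 37, where it called 82 and 433 of all genes. The 95% interval of the log2 fold change lay within -0.5 to 0.5 for 32 of 37 genes with shXPO7_3 and for 27 of 37 with shXPO7_5. Changes as large as those of ATG4A or MAP1LC3A on 4OHT, the largest rise and fall, thus lay outside most intervals. Called changes on 4OHT such as those of ATG13, UVRAG, NBR1, GABARAPL1, OPTN and ULK2 were smaller than 0.5 in size. Intervals of this width can hold changes of that size. With shXPO7_3 the CPM lay wholly above the 4OHT-induced libraries for 2 genes and wholly below for 3, where 7.46% and 7.15% of all genes did. With shXPO7_5 these counts were 4 and 6, where 14.2% and 12.6% of all genes did. The median log2 fold change was -0.03 and -0.06, against -0.003 and 0.006 over all genes. In shXPO7_5/4OHT against shXPO7_3/4OHT, 0 of 37 genes passed by edgeR, where 0.0131% of all genes passed. The 95% interval lay within -0.5 to 0.5 for 29 of 37 genes, and the log2 fold changes ran from -0.616 to 0.272. By edgeR 2 of the 37 had an unadjusted p under 0.05, where 1819 of all 15284 genes had. DESeq2 called 0 of the 37 and 27 of all genes. XPO7 itself fell by 2.30 ± 0.07 with shXPO7_3 and by 1.39 ± 0.07 with shXPO7_5 on the log2 scale.

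**Figure D3:**
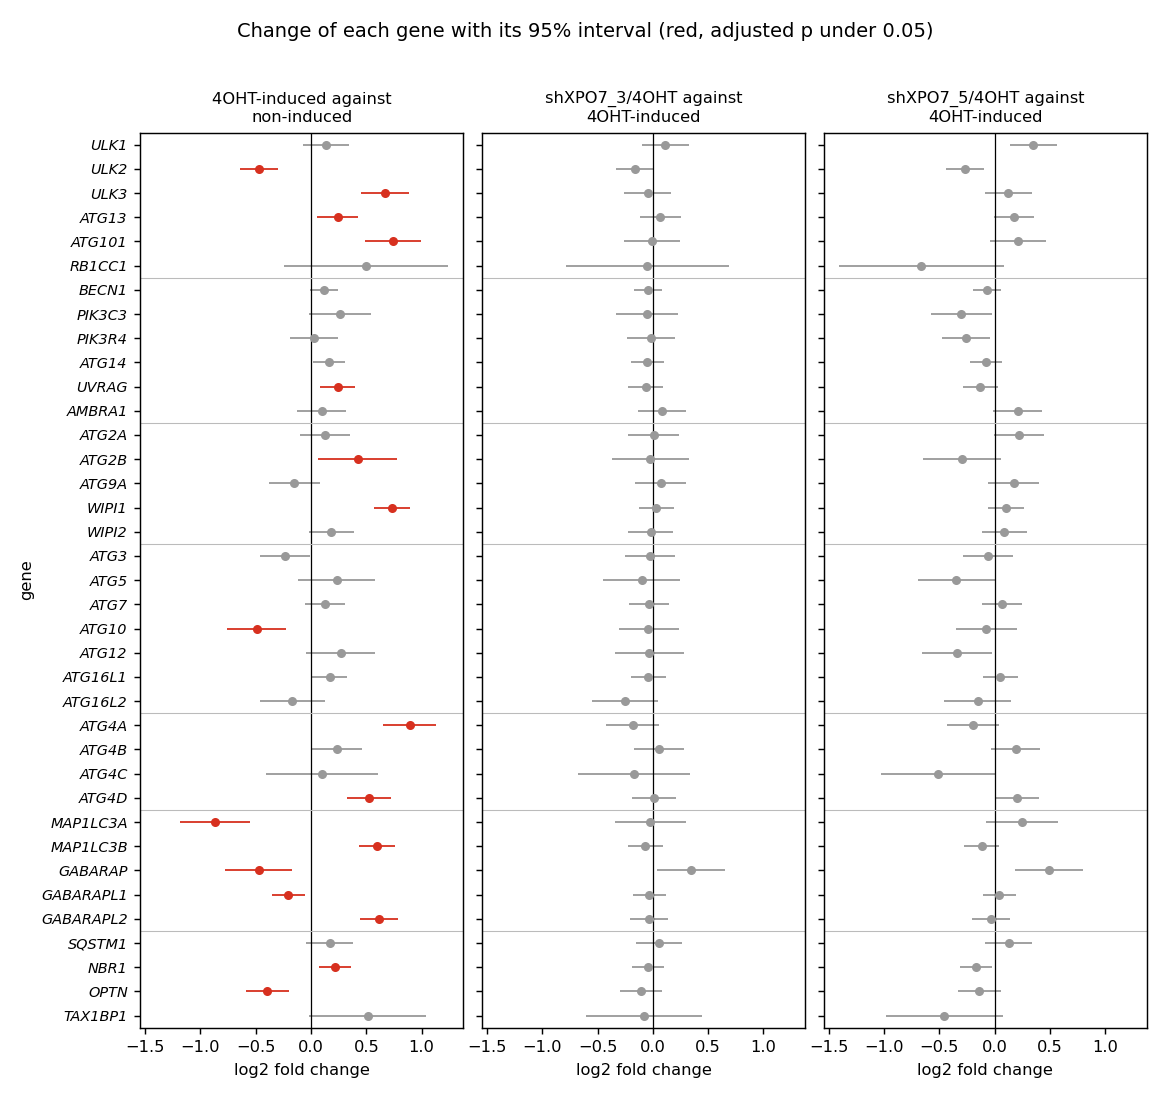
Log2 fold change (points) with 95% interval (lines) of the 37 genes, by role, in 4OHT-induced against non-induced cells and in each knockdown against 4OHT-induced cells; red marks an edgeR adjusted p under 0.05. In the first panel 11 genes are red on the right and 6 on the left of 0, and in the knockdown panels none is red.

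Of the genes with an unadjusted p under 0.05, GABARAP was the one found with both hairpins. It had 6.2, 7.13 and 5.46 CPM with shXPO7_3 and 6.87, 6.16 and 7.62 CPM with shXPO7_5, above the 4.47 to 5.36 CPM of the 4OHT-induced libraries in every case. The differences were 0.34 ± 0.14 (edgeR adjusted p = 0.659) and 0.49 ± 0.14 (edgeR adjusted p = 0.128). Both use the same 4OHT-induced libraries, so they are not independent of each other.

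ULK1 and ULK2, which share a role, lay on opposite sides. ULK1 had 47.3, 38.6 and 42.2 CPM with shXPO7_3 and 51.1, 45.3 and 54.4 CPM with shXPO7_5. The latter lay wholly above the 38.2 to 40.7 CPM of 4OHT-induced cells, at 0.35 ± 0.10 (edgeR adjusted p = 0.113), and DESeq2 called it at 0.37 (adjusted p = 0.0355). With the GC and length trend removed, the ULK1 difference was 0.13 (edgeR adjusted p = 0.175). ULK2 had 10.1, 11.1 and 11.1 CPM with shXPO7_3 and 9.4, 10.1 and 10.6 CPM with shXPO7_5, below the 11.6 to 12.5 CPM of 4OHT-induced cells. Its differences were -0.17 ± 0.08 (edgeR adjusted p = 0.806) and -0.27 ± 0.08 (edgeR adjusted p = 0.133), and the latter was -0.27 with the trend removed. The ratio log2(ULK1/ULK2) was 1.98 ± 0.22 with shXPO7_3 and 2.32 ± 0.14 (SD) with shXPO7_5, against 1.70 ± 0.06 in 4OHT-induced cells, with no overlap in either comparison. The exact permutation p was 0.1 for both, and 0.55 and 0.275 after adjustment over the 11 pairs.

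Several genes with AT-rich transcripts ranged more widely within the shXPO7_5/4OHT group than the 4 group means differed. RB1CC1, with 40.4% GC in its transcripts, had 54.4, 93 and 96.5 CPM with shXPO7_3 and 40.8, 81.7 and 36.6 CPM with shXPO7_5. TAX1BP1, with 40.8% GC, had 116, 185 and 188 CPM and 102, 172 and 103 CPM. The low values of both stood in shXPO7_3/4OHT T, shXPO7_5/4OHT T and shXPO7_5/4OHT B, the 3 libraries with the strongest rise with GC content. ATG12, ATG5 and ATG4C, with 35.5% to 39.4% GC, had lower values in these 3 libraries than in the others of the same group. Across the 37 genes, the log2 fold change for shXPO7_5 had a Spearman rho of 0.849 with GC content, and of 0.693 across the genes of the whole table, as a description of genes that share these libraries. For shXPO7_3 the values were 0.56 and 0.114, and for 4OHT-induced against non-induced cells -0.145 and -0.134. For shXPO7_5/4OHT against shXPO7_3/4OHT they were 0.893 and 0.716.

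The library shXPO7_5/4OHT A, with a rho of 0.115, decided the count for that hairpin. Without it, 14 of 37 genes passed by edgeR, where 3634 of all 15790 genes tested did. ULK1, AMBRA1, ATG2A, ATG4D and GABARAP then lay higher, and RB1CC1, PIK3C3, PIK3R4, ATG2B, ATG5, ATG12, ATG4C, NBR1 and TAX1BP1 lower, with RB1CC1 at -1.12 (adjusted p = 0.0385). The correction for GC content and length was not run without shXPO7_5/4OHT A, so its bearing on these 14 calls was not tested. With all libraries, 0 of 37 passed in either knockdown comparison by edgeR, both uncorrected and with the trend on GC content and length removed. With the trend removed, 385 of all genes passed for shXPO7_3 and 510 for shXPO7_5. The shXPO7_5 difference of RB1CC1 was then -0.39 in place of -0.67, that of TAX1BP1 -0.20 in place of -0.46, and those of ATG12 and PIK3C3 turned from -0.34 and -0.30 to 0.01 and 0.08.

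**Figure D4:**
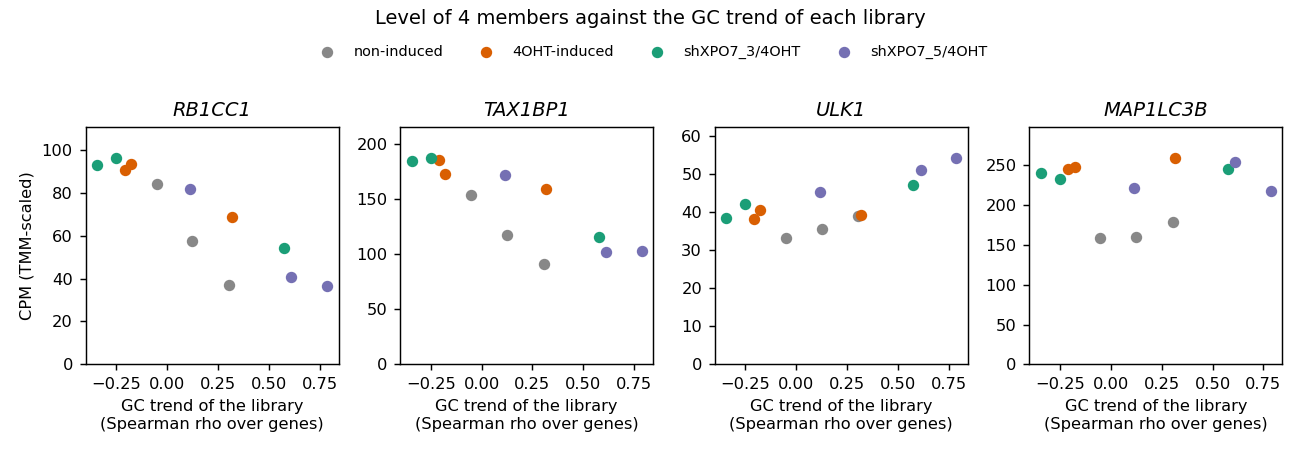
CPM (TMM-scaled) of RB1CC1, TAX1BP1, ULK1 and MAP1LC3B in the 12 libraries, against the Spearman rho, over genes, of a library's log2 ratio to the 4OHT-induced mean with transcript GC content; colours are groups. RB1CC1 is lowest in each group in the library with the largest rho, and ULK1 is at its highest, 47.3 to 54.4 CPM, in the 3 libraries with a rho above 0.5, while the 9 libraries from 4OHT-treated cells hold 218 to 260 CPM of MAP1LC3B at any rho.

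The knockdown cells were also set against non-induced cells. These comparisons share the 3 non-induced libraries with the first one and are no independent evidence. For shXPO7_3/4OHT, 10 genes rose and 7 fell, against 24.5% and 26.2% of all genes. For shXPO7_5/4OHT, 15 rose and 5 fell, against 25.3% and 27.0% of all genes. MAP1LC3B lay 0.53 and 0.48 above non-induced cells with the hairpins and 0.60 without. For GABARAPL2 the values were 0.58, 0.58 and 0.61, for WIPI1 0.76, 0.83 and 0.73, and for ATG4A 0.71, 0.70 and 0.89. MAP1LC3A lay at -0.90 and -0.62 with the hairpins and -0.87 without, and OPTN at -0.50, -0.53 and -0.39. UVRAG, ATG2B, GABARAP and NBR1, which had passed without a hairpin, did not pass with either. Conversely, ULK1 and ATG4B, both higher, and ATG3, lower, passed with both hairpins and had not passed without. So did ATG16L2, lower, with shXPO7_3 alone, and AMBRA1, ATG2A, WIPI2, ATG16L1 and SQSTM1, all higher, with shXPO7_5 alone. With shXPO7_3, ULK1 lay at 0.248 (edgeR adjusted p = 0.0483) and was called in 7 of 20 alternatives. Mean CPM of ATG3 was 57.8 in non-induced, 49.04 in 4OHT-induced, 48.11 in shXPO7_3/4OHT and 46.99 in shXPO7_5/4OHT cells. A call in some comparisons and not in others is no test of a difference between them. UVRAG lay at 0.17 and 0.11 with the hairpins and NBR1 at 0.168 and 0.045, against 0.24 and 0.21 without. GABARAP lay at -0.13 and 0.015 with them (edgeR adjusted p = 0.46 and 0.936) and -0.47 without, and ATG2B at 0.40 and 0.12 (edgeR adjusted p = 0.0575 and 0.553) and 0.42 without. GABARAPL1 passed with shXPO7_3, at -0.24, and not with shXPO7_5, at -0.16 (edgeR adjusted p = 0.0625). Across the 37 genes, the log2 fold changes against non-induced cells had a Spearman rho with GC content of 0.00984 for shXPO7_3 and 0.393 for shXPO7_5.

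Genes that work beside the machinery were taken from a list of 45, of which 38 were tested. On 4OHT 13 rose and 4 fell, where 24.8% and 26.1% of all genes did, and the median log2 fold change was 0.08. The largest rises were those of CCPG1, a receptor for autophagy of the endoplasmic reticulum, at 1.01 ± 0.35 (edgeR adjusted p = 0.028), and VMP1, a membrane protein needed to form autophagosomes, at 0.95 ± 0.06 (edgeR adjusted p = 1.08e-07). VMP1 had 134, 139 and 140 CPM before and 272, 261 and 266 CPM after induction. NRBF2, a partner of the PI3-kinase complex, and TMEM41B, a scramblase that works with VMP1, rose by 0.75 ± 0.09 and 0.63 ± 0.11. CCPG1 had 4.54, 8.28 and 11.8 CPM in non-induced and 18.4, 17.6 and 13.9 CPM in 4OHT-induced libraries, a wide spread within groups. The 4 that fell were SNX18, which shapes membranes for ATG9A traffic, at -1.23 ± 0.08, TRIM5, a restriction factor that also acts as a receptor, at -0.57 ± 0.07, EPG5, a tether for fusion with lysosomes, at -0.51 ± 0.06, and RUBCN, an inhibitor of the PI3-kinase, at -0.26 ± 0.09. In the knockdown comparisons 0 of the 38 passed by edgeR, with 0 and 4 at an unadjusted p under 0.05 and 0 in either by DESeq2. Of all 15284 genes, 979 and 3302 had such an unadjusted p by edgeR.

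Of 41 regulators, all tested, 6 rose and 9 fell on 4OHT, both smaller shares than the 24.8% and 26.1% of all genes, with a median of 0.05. TFEB, a transcription factor for lysosomal and autophagy genes, had 3.09, 3.67 and 2.44 CPM before and 4.76, 4.78 and 4.86 CPM after induction and rose by 0.64 ± 0.14 (edgeR adjusted p = 0.00247). TRIB3, a stress-induced inhibitor of AKT, rose by 1.24 ± 0.12, and TBC1D7, a subunit of the TSC complex that restrains mTORC1, by 0.40 ± 0.08. RRAGD, a Rag GTPase that signals amino acids to mTORC1, rose by 1.75 ± 0.34 (edgeR adjusted p = 0.00103) but stayed below 1 CPM in all 6 of these libraries, with 5 to 14 reads before and 19 to 47 after induction. BCL2, which binds and restrains BECN1, had 4.51, 4.66 and 4 CPM before and 0.984, 1.31 and 0.948 CPM after, a fall of 2.04 ± 0.15 on the log2 scale (edgeR adjusted p = 3.1e-07). DRAM1, a p53-induced lysosomal protein, fell by 0.63 ± 0.08, TP53INP2, a cofactor that binds ATG8 proteins, by 0.51 ± 0.09, and RRAGB, another Rag GTPase, by 0.44 ± 0.10. In the knockdown comparisons 0 of the 41 passed by edgeR, with 3 and 10 at an unadjusted p under 0.05 and 0 in either by DESeq2. By edgeR, 979 and 3302 of all 15284 genes had an unadjusted p under 0.05.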

How the data were processed

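RNA-seq counts of 12 libraries from IMR90 ER:RAS cells were used, in 4 groups of 3 taken from the sample labels. What the authors deposited are raw counts, the number of reads on each gene in each library. As builds, the submitters' processing notes list GRCh37 and hg19, and as tools featureCounts 1.18.0, TopHat2 2.0.11 and CASAVA 1.8.4. No source used here states the annotation, whether strand was used, or how reads with several matches were counted. The 92 spike-in entries, all 0, were left out. Symbols, found for 49517 of 62069 genes, came from a table of gene names and GENCODE release 29 (GRCh38), which also gave exon lengths, GC content and exon overlaps. Genes were matched by identifier and no coordinates were converted. Promoters were RefSeq windows on GRCh38.p14.

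In R 4.3.3 with edgeR 4.0.16, genes were kept by filterByExpr (15284), scaled with TMM factors, and fitted with a quasi-likelihood model of the 4 groups over all 12 libraries. Benjamini-Hochberg adjustment ran over all genes tested, and genes were called at an adjusted p under 0.05. CPM are TMM-scaled. Ratios of related genes were compared by exact two-sided permutation. Alternatives tried were upper-quartile and RLE factors, keeping any gene with 1 count, a filter of 1 CPM in 6 libraries, the replicate letter as a block, only the 2 groups compared, DESeq2 1.42.0, a correction for GC content and length (a spline with 5 degrees of freedom per library, as an offset), and each library left out in turn. The edgeR and DESeq2 fits were also run on simulated counts in which few genes changed and no library had a trend on GC content. That run does not cover libraries with such a trend, nor a comparison in which many genes change, as on 4OHT. The members of the list, the further lists and the rule for naming genes (all members, XPO7, and of each further list up to 4 rises and 4 falls called on 4OHT and any gene called in a knockdown comparison) were chosen with earlier results of these data known.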

Additional observations from a re-analysis of the deposited data

How the results depend on the processing

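Of the counts of called genes, that of risers on 4OHT (11) was 7 with upper-quartile factors, 24 with the correction for GC content and length, and 7 to 14 with single libraries left out, the lowest without non-induced A and without induced A. The count for shXPO7_5/4OHT against 4OHT-induced cells (0) was 1 with DESeq2 and 0 to 14 with single libraries left out, the highest without shXPO7_5/4OHT A. The count for shXPO7_3/4OHT against non-induced cells (17) was 29 with the correction. Some directions turned for genes named here that had not passed. PIK3R4 on 4OHT (0.03) was -0.069 with upper-quartile factors and -0.002 with the filter of 1 CPM, AMBRA1 (0.10) was -0.005 with upper-quartile factors and -0.000 with the replicate block, and ATG4C (0.10) was -0.045 with the correction. With single libraries left out PIK3R4 ran from -0.034 to 0.072 and ATG4C from -0.031 to 0.243, both below 0 without non-induced T. For shXPO7_5 against 4OHT-induced cells, PIK3C3 (-0.30), ATG12 (-0.34) and ATG4D (0.20) were 0.078, 0.012 and -0.036 with the correction. The ratio GABARAPL1/GABARAPL2 with shXPO7_3 was 0.001 without TMM. The causes were not tested. Correlations of deviations between groups ran from -0.234 to 0.589 for the same replicate letter and from -0.62 to 0.512 for different letters. As these ranges overlap, whether the letters pair the libraries stayed undecided. With the letter as a replicate block 14 genes rose and 6 fell on 4OHT. RB1CC1, PIK3C3, ATG12 and TAX1BP1 then passed and ATG13 did not. The letter C marks non-induced C alone, so the block fits that library exactly and takes it out of the comparison. With non-induced C left out and no block, TAX1BP1 likewise passed and ATG13 did not. For shXPO7_5/4OHT against 4OHT-induced cells, the block left the count of called autophagy genes at 0. Their lowest edgeR adjusted p went from 0.113 to 0.0578. Over all genes, those with an unadjusted edgeR p under 0.05 went from 3302 to 5041.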
